A study of Mus musculus with 18 samples.

Results

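Collagen genes were examined in newly transcribed RNA of NIH-3T3 cells, an established mouse fibroblast line. The members are the genes whose probe sets on the Affymetrix array carry a single annotated symbol made of Col, a number, a and a number. This rule found 42 genes with 82 probe sets, of 18193 genes with a single symbol and 45037 probe sets in all. The 18 arrays fall into 6 treatments with 3 biological replicates each: IFNα, IFNγ or mock, each after CHX or after its solvent DMSO alone. CHX is cycloheximide, which blocks translation. It was added 15 min before the IFN and stayed for 75 min in all, IFN was given at 100 U/ml for 1 h, and 4-thiouridine (4sU, 500 µM) labelled the RNA made during the last 30 min. The purified labelled RNA was hybridised, so the values follow synthesis and early processing more closely than total RNA does. Below, mock and CHX stand for cells without IFN, and every group is the same line, so the spread between replicates is that of cultures of 1 line.

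Collagens are matrix proteins built from 3 polypeptide chains that wind into a triple helix. Fibroblasts are the main source of the fibrillar collagens I, III and V in connective tissue, and they also make beaded filament, network-forming and fibril-associated collagens. New chains are hydroxylated and glycosylated in the endoplasmic reticulum, trimmed outside the cell and cross-linked by lysyl oxidases, and IFNγ is known as an inhibitor of collagen production by fibroblasts.

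The treatments showed in genes that are no collagens. H1f2, a linker histone gene, averaged 12.93 on the log2 intensity scale with CHX and 6.33 without it. Irf1, an IFN-induced transcription factor gene, averaged 11.94 with IFNα, 13.6 with IFNγ and 7.99 in mock cells. In cells with CHX, Irf1 averaged 13.44 with IFNα and 14.11 with IFNγ, against 10.73 with CHX alone, so CHX raised it too. Usp18 averaged 9.29 with IFNα and 3.23 with IFNγ, against 2.68 in mock cells. For Usp18 the change with IFNγ did not reach an adjusted p under 0.01 (limma, adjusted p = 0.0659). Median intensities of the 18 arrays lay between 9.6 and 10.8 and arrays correlated at 0.928 to 0.995 on the log2 scale. Of 10 fibroblast markers, 9 were detected and Fap was not. The markers of endothelium did not reach the detection minimum (0 of 4), and of 5 leukocyte markers with a probe set only Cd68 did. Of 6 epithelial markers 5 reached the minimum and Krt14 did not, with an intensity of at most 20.

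A probe set was tested when its highest intensity on any array was at least 8.5. This left 48 probe sets of 25 collagen genes, 24 of which reached that minimum in all 6 treatments. Col4a4 did so in 2 treatments only, and with a highest value of 9.1 it lay just inside the minimum. The other 17 genes stayed below it on every array, Col25a1 with its highest value of 8.4 just outside. Among these 17 were the cartilage collagen chain gene Col2a1, both multiplexin genes (Col15a1 and Col18a1) and the 4 transmembrane collagen genes on the array. Tested were 9 of 11 fibrillar, 6 of 9 fibril-associated, 5 of 6 basement membrane, 3 of 5 beaded filament and 1 of 3 short-chain network genes, and Col7a1 of the anchoring fibrils. A gene with several probe sets is shown by the brightest of them over the 18 arrays, and its values are log2 intensities unless stated otherwise. They are compared between treatments and never between genes.

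The first comparison asked which collagen genes changed when translation was blocked. With CHX against mock, 6 of 25 genes passed an adjusted p under 0.01 (limma, Benjamini-Hochberg), 5 of them higher and 1 lower. Of all 27773 probe sets tested, 10.9% passed, 3.92% higher and 7.02% lower. With IFNα present, 6 of 25 passed, all 6 higher, against 11.9% of all probe sets (5.54% higher, 6.31% lower). With IFNγ present, 4 of 25 passed, all 4 higher, against 14% (4.9% higher, 9.14% lower). Averaged over the 3 settings, 8 of 25 genes were higher and 0 were lower, while 30.6% of all probe sets passed, 12.7% higher and 17.9% lower. In that average 11 of 25 genes had an unadjusted p under 0.05. Here and below, the share of all probe sets at that unadjusted threshold was not counted, so these counts have no background to be read against. The median collagen gene shifted by 0.2 on the log2 scale and the median of all probe sets by 0.0336. Col12a1, Col22a1, Col7a1 and Col8a1 passed in each of the 3 settings, which use different arrays. By class, 4 of 6 fibril-associated genes rose in the average, as did 2 of 9 fibrillar genes and the single short-chain and anchoring fibril genes, while 0 of 5 basement membrane and 0 of 3 beaded filament genes passed. Cd68 and Acta2, markers of leukocytes and of smooth muscle, were also higher with CHX. Summed over its 5 genes the leukocyte list lay between 166.4 and 304.2 with CHX and between 72.3 and 131.8 without it, and the 4 smooth muscle genes summed to 8427.7 to 12387.9 with CHX and to 4504 to 7464 without it. Of the leukocyte list, Ptprc, Cd3e, Itgam and Adgre1 stayed below the detection minimum. Of the smooth muscle list, Cnn1 stayed below it too, and Myh11 and Des did not pass (0.08 and 0.04). That sum is almost Acta2 alone, whose highest intensity was 12368.2. Of the fibroblast markers Vim was higher (0.46) and Pdgfra, Pdgfrb and S100a4 were lower (-0.61, -0.78 and -0.19), and the 10 genes summed to 37340.9 to 45900.3 with CHX and to 36061.4 to 44408.4 without it. The chondrocyte marker Sox9 was lower (-1.34), and that list of 5 genes summed to 533.6 to 1292.3 with CHX and to 1156 to 3150.3 without it. This sum is almost Sox9 alone, as Acan, Matn1 and Cnmd stayed below the minimum and Matn3 did not pass (0.1). The part of these markers in the collagen changes was not tested.

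**Figure D1:**
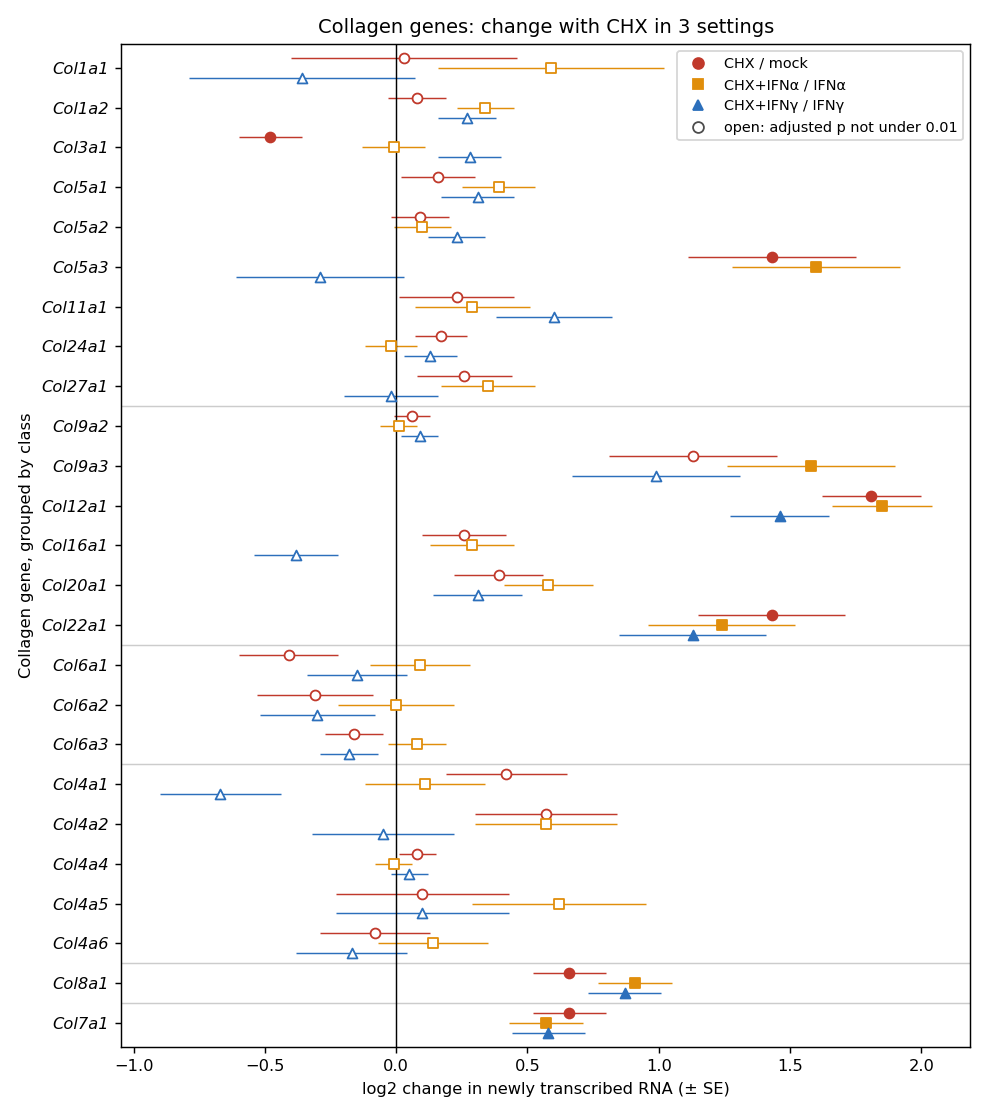
Log2 change with CHX (x axis, bars are the SE of the limma fit) for the 25 tested collagen genes, grouped by class, in cells without IFN (circles), with IFNα (squares) and with IFNγ (triangles). Filled symbols passed an adjusted p under 0.01. Col12a1, Col22a1, Col8a1 and Col7a1 are filled in all 3 settings, and Col5a3 lies at 1.43 and 1.6 in the first 2 settings and at -0.29 with IFNγ.

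Among the probe sets that stand for the genes, that of Col12a1 showed the largest averaged rise, while a further probe set of Col9a3 rose by 1.76. It encodes the chain of collagen XII, which sits on the surface of collagen I fibrils. The values were 8.65, 8.61 and 8.25 with CHX, against 6.67, 6.74 and 6.66 in mock cells. They were 8.82, 8.56 and 8.78 with CHX and IFNα, against 7.17, 6.77 and 6.67 with IFNα alone. With CHX and IFNγ they were 8.11, 8.6 and 8.21, against 6.68, 7.29 and 6.58 with IFNγ alone. All 9 arrays with CHX lay above all 9 without it. The averaged change was 1.71 ± 0.11 (SE), or 3.27-fold, with an adjusted p of 2.75e-08. A second probe set of Col12a1 (1427391_a_at) stayed between 3.45 and 4.58 over the 18 arrays and did not pass in any comparison.

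Col8a1 encodes a chain of collagen VIII, a short-chain collagen that forms networks around vessels and in the cornea. Its values were 9.96, 9.55 and 9.69 with CHX, against 8.94, 9.2 and 9.06 in mock cells. With CHX and IFNα they were 9.91, 9.71 and 9.88, against 9.15, 8.76 and 8.85 with IFNα alone. With CHX and IFNγ they were 9.76, 9.69 and 9.91, against 8.75, 8.89 and 9.12 with IFNγ alone. Again the arrays with CHX and those without it did not overlap. The averaged change was 0.82 ± 0.08 (1.76-fold, adjusted p = 1.5e-06). A second probe set (1418440_at) rose by 1.17 ± 0.22 on average (adjusted p = 0.000573). The 250 bases before the Col8a1 start are shown as the example of a gene raised by CHX, chr16:57754738-57754987 (minus strand) in GRCm38.p6 from RefSeq, read 5′ to 3′ on the gene's strand. Capitals mark GGGCGG, the GC box letters, on either strand, here 4 matches on the opposite strand at positions -170, -73, -66 and -23 counted from the start.
Col8a1: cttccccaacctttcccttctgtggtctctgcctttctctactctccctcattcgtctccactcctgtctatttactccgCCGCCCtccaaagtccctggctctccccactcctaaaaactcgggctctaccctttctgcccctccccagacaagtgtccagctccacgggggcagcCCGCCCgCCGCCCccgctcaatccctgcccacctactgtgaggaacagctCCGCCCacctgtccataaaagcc

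Of the remaining fibril-associated collagen genes, Col22a1, Col9a3 and Col20a1 also rose with CHX. Col22a1 encodes the chain of collagen XXII, found at tissue junctions such as the ends of muscle fibres. Its 9 arrays without CHX lay between 3.74 and 3.85. The values were 5.72, 4.95 and 4.93 with CHX, 5.73, 4.47 and 4.85 with CHX and IFNα, and 4.84, 5.35 and 4.63 with CHX and IFNγ. The averaged change was 1.26 ± 0.16 (adjusted p = 1.78e-05). Its other probe sets, 1446851_at and 1429280_at, changed by 0.06 and 0.16 and did not pass. Col9a3, which encodes a chain of the cartilage collagen IX, had 5.93, 5.17 and 5.46 with CHX, against 4.67, 4.69 and 3.83 in mock cells. With CHX and IFNα it had 7.2, 5.81 and 6.79, against 5.1, 5.22 and 4.73 with IFNα alone. With CHX and IFNγ it had 5.91, 5.6 and 5.65, against 4.56, 5.05 and 4.57 with IFNγ alone. Within each setting the arrays with CHX were above those without. The averaged change was 1.23 ± 0.19 (adjusted p = 9.73e-05), and a second probe set (1460734_at) rose by 1.76 ± 0.18. Col20a1, the gene of the fibril-associated collagen XX, rose by 0.43 ± 0.1 (adjusted p = 0.00255) in the averaged comparison and in none of the single ones. The probe sets 1425235_s_at and 1425234_at rose by 1.11 and 1.12. The fourth, 1425236_at, reached the detection minimum in 2 treatments only, both with CHX, so it entered the test through the groups where it is high and its value supports nothing.

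Col7a1 encodes the chain of collagen VII, which forms the anchoring fibrils below the basement membrane of skin. Its values were 3.97, 3.96 and 3.72 with CHX, against 3.1, 3.46 and 3.12 in mock cells. With CHX and IFNα they were 3.96, 4.25 and 3.82, against 3.5, 3.58 and 3.25 with IFNα alone. With CHX and IFNγ they were 3.74, 3.62 and 3.83, against 3.12, 3.29 and 3.05 with IFNγ alone. All values with CHX were above all values without it. The averaged change was 0.6 ± 0.08 (adjusted p = 3.1e-05), at a level where its highest intensity on any array was 19.

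**Figure D2:**
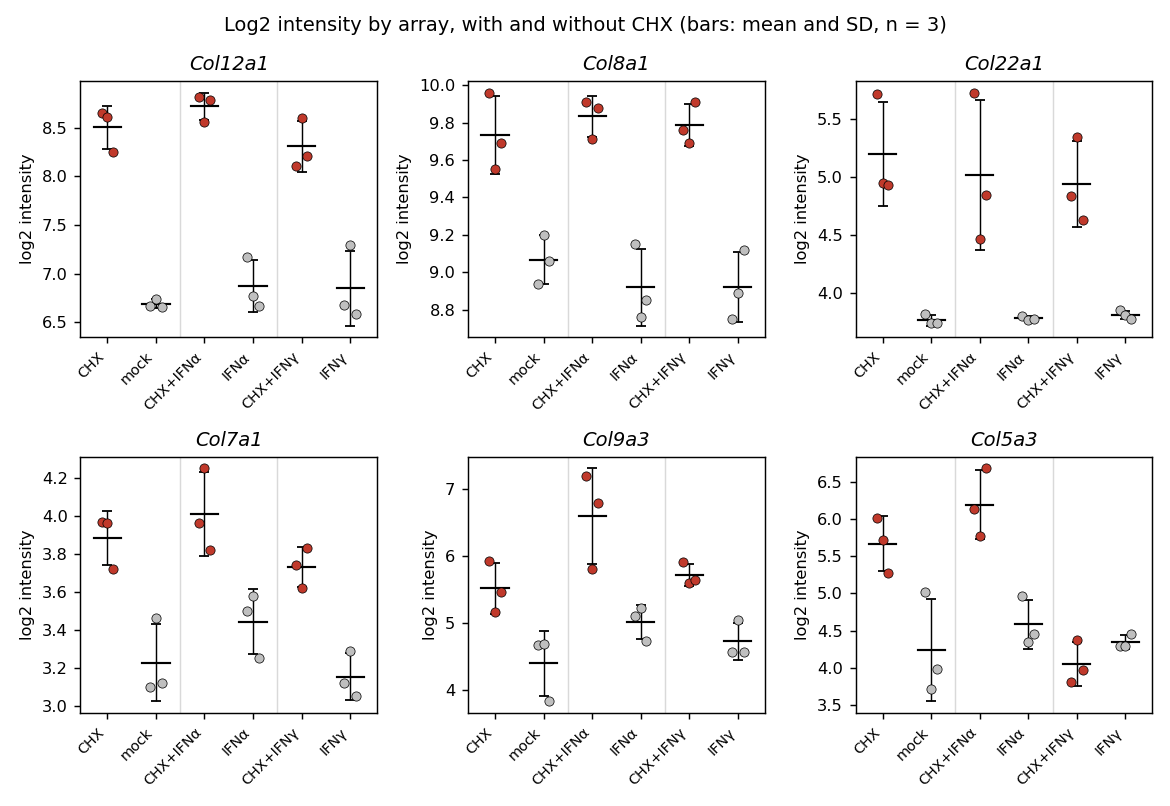
Log2 intensity (y axis) of 6 collagen genes on every array, with each CHX treatment (red) left of the same treatment without CHX (grey). Points are arrays, and bars are the mean and SD of 3 arrays. The Col12a1 arrays with CHX lie between 8.11 and 8.82 and those without between 6.58 and 7.29, while Col5a3 is high with CHX and with CHX and IFNα only.

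Col5a3 encodes the α3 chain of collagen V, a minor fibrillar collagen that regulates fibril formation. It had 6.01, 5.72 and 5.28 with CHX, against 5.02, 3.72 and 3.98 in mock cells, and 6.13, 5.77 and 6.68 with CHX and IFNα, against 4.96, 4.35 and 4.45 with IFNα alone. The arrays with CHX were above those without it in both settings. With CHX and IFNγ it had 3.81, 4.38 and 3.97, against 4.3, 4.29 and 4.45 with IFNγ alone, and these arrays overlapped. The changes were 1.43 ± 0.32 (adjusted p = 0.00535), 1.6 ± 0.32 (adjusted p = 0.0023) and -0.29 ± 0.32 (adjusted p = 0.535). The test of the difference between the first and the last of these, the interaction of CHX and IFNγ, gave -1.72 ± 0.45 with an adjusted p of 0.15. The region before the Col5a3 start is shown because the gene passed with CHX and, in cells with CHX only, with IFNγ. It is chr9:20815068-20815317 (minus strand) in GRCm38.p6 from RefSeq. Capitals mark CCAAT at position -122 and, on the opposite strand, GGGCGG at -63 and -41.
Col5a3: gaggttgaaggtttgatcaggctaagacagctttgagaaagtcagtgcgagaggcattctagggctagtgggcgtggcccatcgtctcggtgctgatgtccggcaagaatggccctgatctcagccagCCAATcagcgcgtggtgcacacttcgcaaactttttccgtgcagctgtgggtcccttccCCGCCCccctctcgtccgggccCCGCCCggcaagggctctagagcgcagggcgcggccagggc

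The 2 other collagen V genes changed less. Col5a1 and Col5a2 encode the α1 and α2 chains. With CHX their averaged changes were 0.29 ± 0.08 (adjusted p = 0.0116) and 0.14 ± 0.07 (adjusted p = 0.105). Further probe sets of Col5a1 did not share its rise. In mock, IFNα and IFNγ cells, 1416741_at averaged 7.68, 7.78 and 7.3 with CHX, against 7.84, 7.84 and 7.54 without it. In the same order, 1434479_at averaged 9.72, 9.65 and 9.45 with CHX, against 9.66, 9.57 and 9.56 without it. A second probe set of Col5a2 (1450625_at) rose by 0.52 ± 0.07 with CHX (adjusted p = 6.03e-05). Col1a2, the gene of the α2 chain of collagen I, rose by 0.23 ± 0.06 in the averaged comparison (adjusted p = 0.00705). Its probe sets 1423110_at and 1446326_at rose by 0.32 and 1.08 (adjusted p = 0.00171 and 5.25e-07). Col1a1, the gene of the α1 chain, spread between 8.8 and 10.96 over the 18 arrays. Its averaged change of 0.09 had a 95% interval of -0.44 to 0.62, which spans 0. A second probe set of Col1a1 (1455494_at) had higher means with CHX. In mock, IFNα and IFNγ cells these were 9.15, 8.96 and 8.29 with CHX, against 8.49, 8.47 and 8.08 without it. The beaded filament genes Col6a1, Col6a2 and Col6a3 changed by -0.16, -0.2 and -0.09 in the averaged comparison and the basement membrane genes Col4a1 and Col4a2 by -0.05 and 0.36. None of these passed.

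With CHX against mock 5 of 25 genes had a negative change, and the share of all probe sets that did was not counted. Col3a1 was the only collagen gene called lower with CHX, in that comparison alone. It encodes the chain of collagen III, which forms fibrils together with collagen I in elastic tissues. It had 12.05, 11.89 and 11.8 with CHX, against 12.29, 12.53 and 12.35 in mock cells. These groups did not overlap, and the change was -0.48 ± 0.12 (adjusted p = 0.0093). With IFNα present it was -0.01 and with IFNγ present 0.28. This call was lost in 19 of 29 alternatives, among them the omission of any mock array, of CHX replicate 2 or 3 or of any CHX and IFNγ array.

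The calls of the single settings rested on fewer arrays than the averaged ones. When a single array was omitted, 2 to 6 genes passed with CHX against mock and 2 to 6 with IFNα present. With IFNγ present 2 to 4 passed, and in the average 7 to 9. These counts include genes that passed only after an omission. For CHX against mock the count was 3 without mock replicate 1 or CHX replicate 2 and 2 without mock replicate 3 or CHX replicate 1. With IFNα present it was 3 without IFNα replicate 2 or CHX and IFNα replicate 3 and 2 without IFNα replicate 3. With IFNγ present it was 2 without IFNα replicate 1, IFNγ replicate 1 or 2, CHX replicate 2 or CHX and IFNγ replicate 1. Without CHX and IFNα replicate 1 the calls of Col22a1, Col7a1 and Col9a3 with IFNα present were lost. Without IFNγ replicate 3 those of Col22a1 and Col7a1 with IFNγ present were lost. The call of Col7a1 with IFNα present was lost in 21 of 28 alternatives, that of Col22a1 with IFNγ present in 18 of 29 and that of Col1a2 in the average in 12 of 28. A fit to only the arrays of each comparison left 1, 2 and 0 calls in the 3 single settings. The calls of Col12a1, Col8a1, Col22a1, Col7a1, Col9a3, Col5a3 and Col20a1 in the average held in every alternative run for them.

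Partner genes were read against the 12.7% of all probe sets that were higher and the 17.9% that were lower with CHX in the average. Of 16 tested genes for chain modification and folding, 1 was higher and 8 were lower in the averaged comparison, with a median of -0.36. The higher one, P3h2, reached the detection minimum on average only with CHX and IFNγ. Crtap, a subunit of the prolyl 3-hydroxylation complex, averaged 7.9 with CHX and 8.93 without it (-1.03 ± 0.08, adjusted p = 9.46e-08). P3h4, a non-enzymatic relative in that family, changed by -0.9, P4hb, the protein disulphide isomerase subunit of prolyl 4-hydroxylase, by -0.87 and Colgalt1, which adds galactose to hydroxylysine, by -0.84. Of 6 tested genes for propeptide removal and cross-linking, Bmp1, the procollagen C-proteinase gene, was lower (-0.54) and the others did not pass. Of 3 tested receptors Ddr1, a collagen-binding receptor tyrosine kinase, was higher by 0.76.

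Of 14 tested matrix partners, 4 were higher and 1 was lower. Lamc1 and Lamb1, genes of the laminin γ1 and β1 chains, changed by 0.97 and -0.79, and Tnc (tenascin C) and Postn (periostin) by 0.75 and 0.65. Of 7 tested genes of collagen degradation and its inhibitors, 0 were higher and 5 were lower. The largest falls were those of the gelatinase gene Mmp2 (-1.09), the membrane-bound collagenase gene Mmp14 (-0.68), the inhibitor gene Timp1 (-0.66) and the cathepsin K gene Ctsk (-0.28). Of 11 genes of TGFβ ligands, receptors and response, 3 were higher and 4 were lower. Tgfb2 rose by 1.53 ± 0.1 and Tgfb1 fell by 1.68 on the log2 scale, both genes of TGFβ ligands. Skil, a Smad inhibitor gene, rose by 0.83 and Smad2, a signal transducer gene, fell by 0.82.

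**Figure D3:**
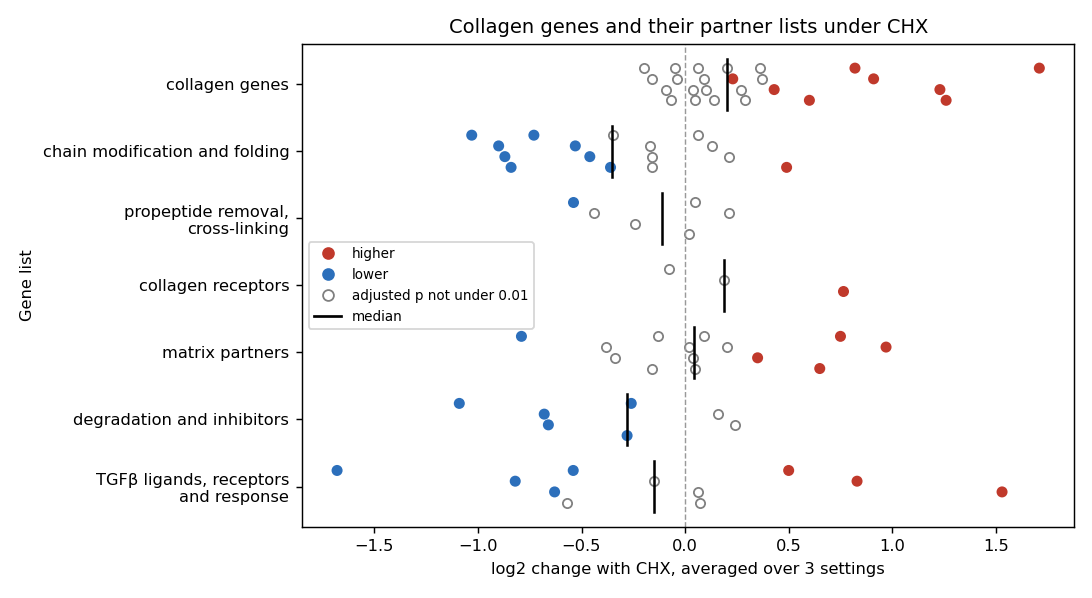
Log2 change with CHX averaged over 3 settings (x axis) for each tested gene of the collagen genes and of 6 partner lists (y axis). Filled points passed an adjusted p under 0.01, higher in red and lower in blue, open points did not pass, and black lines are medians. Filled collagen genes lie right of 0 only, and 8 of the 9 filled genes for chain modification and folding lie left of it.

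IFNα called no collagen gene. With IFNα against mock 0 of 25 passed in limma, 4 had an unadjusted p under 0.05, and 0.569% of all probe sets passed. With IFNα and CHX against CHX 0 of 25 passed, 2 had an unadjusted p under 0.05, and 0.961% of all probe sets passed. In the average of both it was again 0 of 25, with 3 at an unadjusted p under 0.05, and 0.969% of all probe sets passed the adjusted threshold. The closest was Col3a1 with IFNα, which had 11.85, 11.85 and 11.97, against 12.29, 12.53 and 12.35 in mock cells. Although these arrays did not overlap, the change of -0.5 ± 0.12 had an adjusted p of 0.073. One further probe set passed outside the chosen ones. The second probe set of Col9a3 (1460734_at) had 7.36, 7.41 and 7.5 with IFNα and CHX, against 6.08, 5.22 and 5.22 with CHX, a change of 1.92 ± 0.31 (adjusted p = 0.00241). The representative Col9a3 probe set changed by 1.08 ± 0.32 in the same comparison (adjusted p = 0.304). Among the partner genes, Timp1 rose by 0.57 with IFNα on average (adjusted p = 0.000939).

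IFNγ lowered Col1a2 and Col6a1 in the average of both settings. Without CHX 1 of 25 genes passed and was lower, against 2.12% of all probe sets (0.41% lower). With CHX 3 of 25 passed, 1 higher and 2 lower, against 4.34% (3.22% higher, 1.12% lower). In the average of both settings 2 of 25 passed, both lower, against 5.57% (1.72% lower). At an unadjusted p under 0.05 there were 4, 8 and 8 genes, with no share of all probe sets counted. In that average 19 of 25 genes had a negative change, with a median of -0.11, while the median of all probe sets was -0.0314. The share of all probe sets with a negative change was not counted, so the 19 are not read as a fall of the family. The 2 single settings use different control arrays, mock and CHX, and the average uses all of them. Among fibroblast markers Twist2, S100a4 and Prrx1 were lower with IFNγ in the same average (-1.51, -0.34 and -0.88 on the log2 scale), and Thy1 was higher (1.4). The 10 fibroblast genes summed to 37389.1 to 42163.4 with IFNγ and to 36061.4 to 45900.3 in mock and CHX arrays, which overlapped. Their part in the collagen changes was not tested. A change in every cell and a change in a part of the cells cannot be told apart in these bulk samples.

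**Figure D4:**
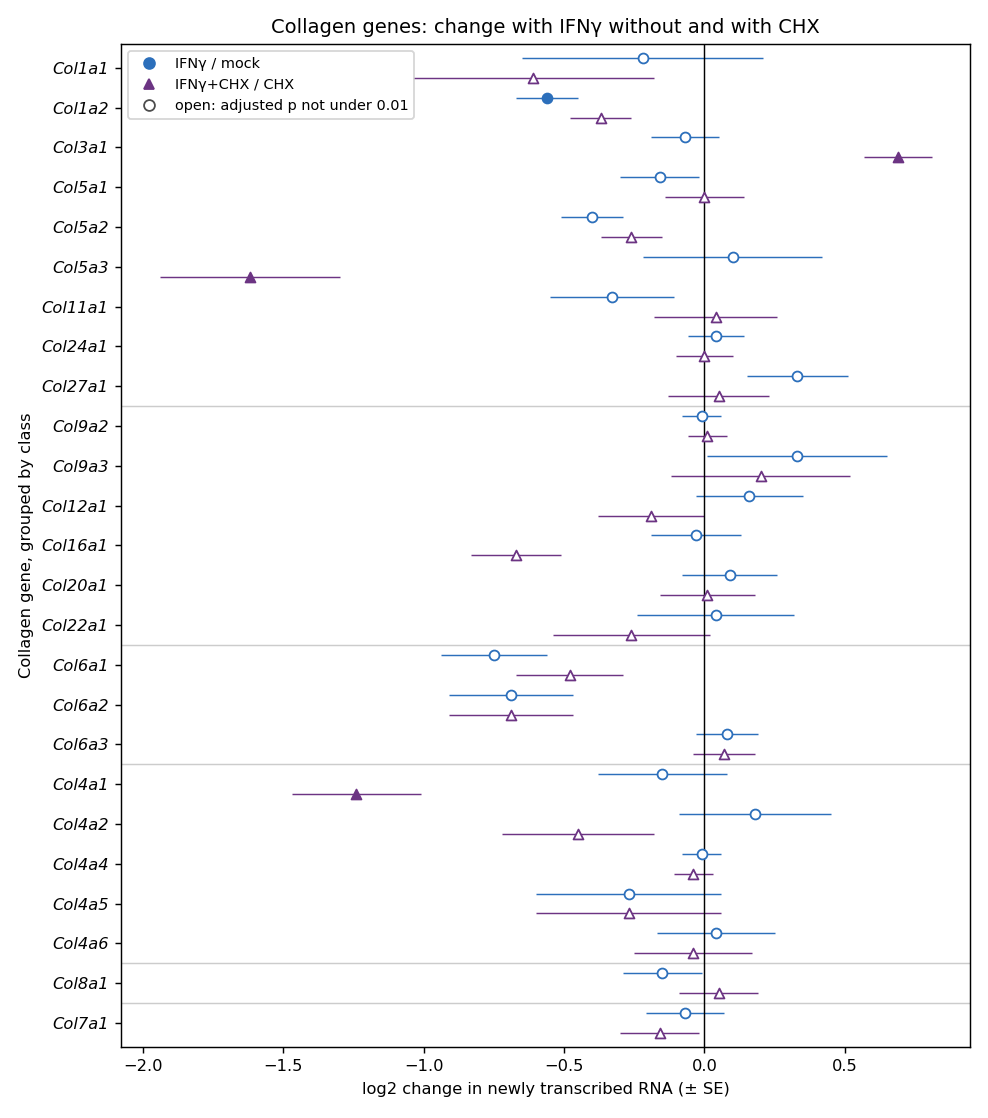
Log2 change with IFNγ (x axis, bars are the SE of the limma fit) for the 25 tested collagen genes without CHX (circles) and with CHX (triangles), grouped by class. Filled symbols passed an adjusted p under 0.01. Col1a2 is filled without CHX at -0.56, and Col3a1, Col4a1 and Col5a3 are filled with CHX at 0.69, -1.24 and -1.62.

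Col1a2 was lower with IFNγ in both settings. It had 12.44, 12.44 and 12.18 with IFNγ, against 12.77, 12.99 and 12.98 in mock cells, and 12.79, 12.54 and 12.55 with IFNγ and CHX, against 13.04, 12.94 and 13.01 with CHX. All arrays with IFNγ lay below their controls in both settings. The changes were -0.56 ± 0.11 (adjusted p = 0.00647) and -0.37 ± 0.11 (adjusted p = 0.0521), and the average was -0.47 ± 0.08 (adjusted p = 0.000795). The other 2 probe sets of Col1a2 also fell. The probe set 1423110_at changed by -0.56 and 1446326_at by -1 on average (adjusted p = 0.000328 and 2.92e-05). The probe set 1446326_at had 9.5, 9.13 and 9.21 with IFNγ, against 10.07, 10.48 and 10.4 in mock cells, and 10.28, 10.63 and 10.5 with IFNγ and CHX, against 11.08, 11.69 and 11.55 with CHX. The call of the average was lost only when arrays were centred on the median of the tested probe sets (-0.41, adjusted p = 0.0157). The call without CHX was lost in 13 of 29 alternatives, among them the omission of any IFNγ array or of mock replicate 2 or 3. The region before the Col1a2 start is shown because 3 of 3 probe sets of the gene were lower, chr6:4505368-4505617 (plus strand) in GRCm38.p6 from RefSeq. Capitals mark GGGCGG at -205 and -188 and CCAAT at -109.
Col1a2: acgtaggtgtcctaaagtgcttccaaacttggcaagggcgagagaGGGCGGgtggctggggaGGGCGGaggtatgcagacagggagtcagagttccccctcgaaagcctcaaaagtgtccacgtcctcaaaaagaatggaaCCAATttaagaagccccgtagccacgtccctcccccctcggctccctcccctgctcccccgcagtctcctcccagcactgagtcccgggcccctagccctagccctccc

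Col1a1, the gene of the partner chain in collagen I, did not pass with IFNγ. It had 10.54, 9.97 and 9.6 with IFNγ, against 10.96, 9.49 and 10.31 in mock cells, and 10.12, 10.1 and 8.8 with IFNγ and CHX, against 10.57, 10.59 and 9.7 with CHX. Both pairs of groups overlapped, and the averaged change of -0.42 had a 95% interval of -1.06 to 0.23. Its second probe set (1455494_at) changed by -0.64 ± 0.23 (adjusted p = 0.122).

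Of the 3 tested collagen VI genes 1 passed with IFNγ in the average. Collagen VI forms beaded filaments around cells from the α1, α2 and α3 chains. Col6a1 had 10.47, 10.61 and 10.41 with IFNγ, against 11.23, 11.06 and 11.45 in mock cells. With IFNγ and CHX it had 10.53, 10.65 and 9.86, against 11.1, 10.8 and 10.59 with CHX. The arrays overlapped in the second setting only, and the averaged change was -0.61 ± 0.14 (adjusted p = 0.00877). Col6a2 had 8.67, 8.82 and 8.78 with IFNγ, against 9.64, 9.08 and 9.63 in mock cells, and 8.66, 8.71 and 8 with IFNγ and CHX, against 9.47, 9.04 and 8.91 with CHX. Here neither pair of groups overlapped, but the averaged change of -0.69 ± 0.16 missed the threshold (adjusted p = 0.0114). The other Col6a2 probe set (1426947_x_at) overlapped in both settings. It averaged 8.75 with IFNγ, against 9.51 in mock cells, and 8.41 with IFNγ and CHX, against 9.14 with CHX. Col6a3 changed by 0.08 ± 0.08 (adjusted p = 0.721), with a 95% interval of -0.09 to 0.25. Col6a1 and Col6a2 are neighbours on chromosome 10 with 0 protein-coding genes between them, and Col6a3 lies on chromosome 1. The Col6a1 call was lost in 19 of 29 alternatives, among them the omission of any mock, IFNα or IFNγ array, of CHX replicate 1 or 2, or of CHX and IFNγ replicate 3. It was also lost with no filter, with quantile normalization and with centring on the median of the tested probe sets. A replicate block and a fit to the arrays of the comparison lost it too.

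The region before the Col6a1 start, chr10:76726045-76726294 (minus strand) in GRCm38.p6 from RefSeq, is shown beside that of Col1a2 as the second gene called lower. Capitals mark TGANTCA, the AP-1 letters, at -90.
Col6a1: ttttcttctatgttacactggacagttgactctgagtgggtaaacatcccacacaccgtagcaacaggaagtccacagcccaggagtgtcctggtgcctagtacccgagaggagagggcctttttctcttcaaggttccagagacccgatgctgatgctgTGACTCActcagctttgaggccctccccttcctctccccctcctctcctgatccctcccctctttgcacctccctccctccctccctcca

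Col5a2 followed the same direction without passing. It had 12, 12.33 and 12.2 with IFNγ, against 12.4, 12.66 and 12.66 in mock cells, and 12.39, 12.23 and 12.59 with IFNγ and CHX, against 12.69, 12.64 and 12.66 with CHX. No array with IFNγ reached its controls, and the averaged change was -0.33 ± 0.08 (adjusted p = 0.0167). A second probe set of Col5a2 (1450625_at) was apart from mock cells without CHX but overlapped under CHX. There it had 10.62, 10.58 and 10.93 with IFNγ and CHX, against 11, 10.84 and 10.84 with CHX. Col5a1 changed by -0.08 ± 0.1 (adjusted p = 0.775).

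Under CHX, IFNγ moved Col3a1 up and Col4a1 and Col5a3 down. Col3a1 had 12.62, 12.52 and 12.67 with IFNγ and CHX, against 12.05, 11.89 and 11.8 with CHX, a change of 0.69 ± 0.12 (adjusted p = 0.00124). Without CHX it had 12.43, 12.43 and 12.11 with IFNγ, against 12.29, 12.53 and 12.35 in mock cells, which overlapped (-0.07 ± 0.12). The interaction was 0.76 ± 0.16 with an adjusted p of 0.0583. A second probe set of Col3a1 (1427884_at) rose by 1.13 ± 0.19 with IFNγ and CHX (adjusted p = 0.00151). Col5a2, the neighbour of Col3a1 on chromosome 1 with 0 protein-coding genes between them, changed by -0.26 ± 0.11 in the same comparison (adjusted p = 0.235). The region before the Col3a1 start is shown because the gene moved opposite to the others, chr1:45311288-45311537 (plus strand) in GRCm38.p6 from RefSeq. Capitals mark TATAAA at -117.
Col3a1: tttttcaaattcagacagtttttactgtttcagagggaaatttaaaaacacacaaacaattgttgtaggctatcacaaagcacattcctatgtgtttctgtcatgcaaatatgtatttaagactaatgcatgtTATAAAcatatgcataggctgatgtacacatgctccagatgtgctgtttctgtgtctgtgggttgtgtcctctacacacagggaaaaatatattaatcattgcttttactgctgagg

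Col4a1 and Col4a2 encode the α1 and α2 chains of collagen IV, the main network of basement membranes, and lie head to head on chromosome 8. Col4a1 had 9.56, 9.78 and 9.23 with IFNγ and CHX, against 10.96, 10.85 and 10.48 with CHX, and these arrays were apart. The change was -1.24 ± 0.23 (adjusted p = 0.0027). Without CHX it had 10.5, 10.39 and 9.68 with IFNγ, against 10.67, 10.17 and 10.19 in mock cells, which overlapped (-0.15 ± 0.23). The interaction was -1.09 ± 0.32 (adjusted p = 0.257). Col4a2 had 9.37, 8.79 and 8.54 with IFNγ and CHX, against 9.93, 9.27 and 8.82 with CHX, and these overlapped (-0.45 ± 0.27, adjusted p = 0.448). The region before the Col4a1 start is shown for the gene lowered by IFNγ under CHX, chr8:11312827-11313076 (minus strand) in GRCm38.p6 from RefSeq. Capitals mark CCAAT at -145 on the opposite strand. The 300-base windows around the starts of Col4a1 and Col4a2 share 78 bases. A second probe set of Col4a1 (1426348_at) changed by -1.03 ± 0.26 with IFNγ and CHX and did not pass (adjusted p = 0.0247).
Col4a1: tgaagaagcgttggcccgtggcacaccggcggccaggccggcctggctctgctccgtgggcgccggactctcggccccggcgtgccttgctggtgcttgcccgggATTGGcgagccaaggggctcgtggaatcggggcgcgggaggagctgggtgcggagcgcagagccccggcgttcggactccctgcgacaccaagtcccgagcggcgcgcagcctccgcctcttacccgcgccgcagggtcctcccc

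Col5a3 had 3.81, 4.38 and 3.97 with IFNγ and CHX, against 6.01, 5.72 and 5.28 with CHX. The change was -1.62 ± 0.32 (adjusted p = 0.00434), while without CHX it was 0.1 ± 0.32 (adjusted p = 1). These 3 calls share the CHX arrays with the comparison of CHX against mock, so the values of Col3a1 and Col5a3 in both are not independent. The Col4a1 call was lost without CHX replicate 1 or 2 or CHX and IFNγ replicate 3 (-1.14, -1.2 and -1.09), and the Col5a3 call without CHX replicate 1 or 2 or CHX and IFNγ replicate 1 or 3. A fit to the 6 arrays of the comparison left 0 of the 3 calls. For both IFNs the interaction with CHX passed for 0 of 25 collagen genes in limma, and for 0.187% (IFNα) and 0.241% (IFNγ) of all probe sets. At an unadjusted p under 0.05 there were 1 gene for IFNα and 4 genes for IFNγ.

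**Figure D5:**
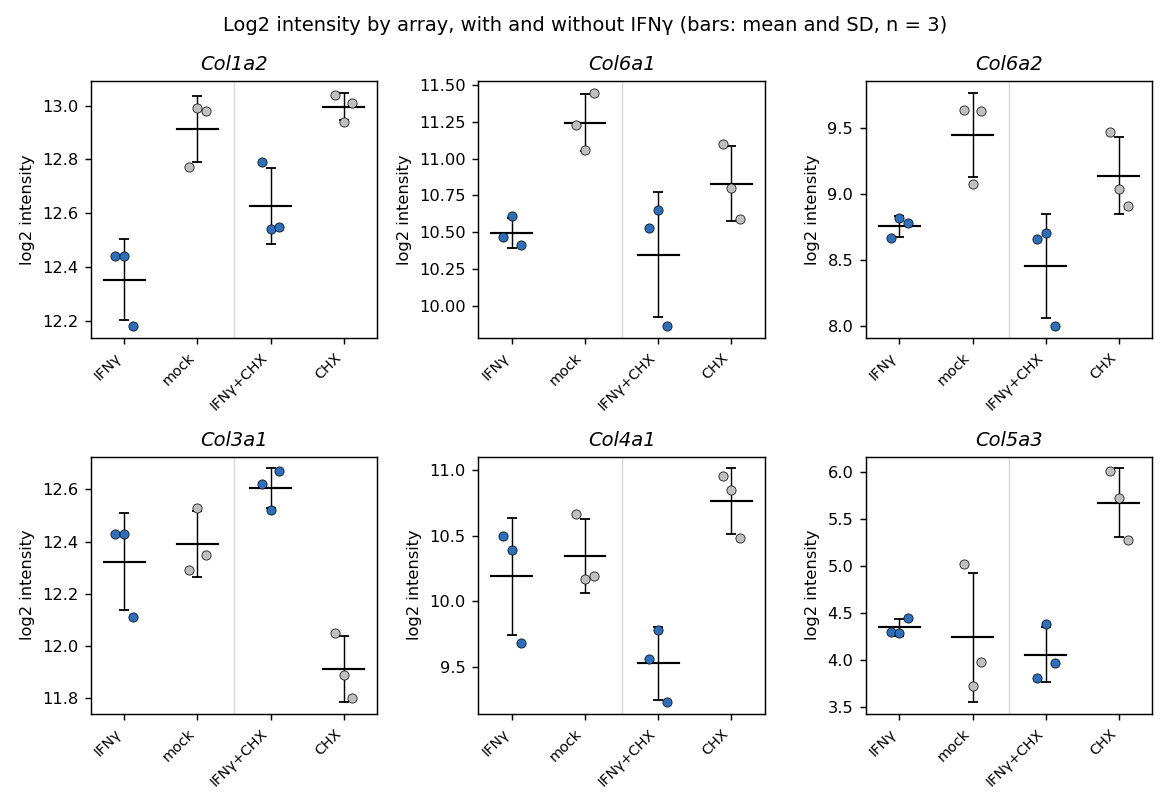
Log2 intensity (y axis) of 6 collagen genes on every array, with each IFNγ treatment (blue) left of its control (grey), without and with CHX. Points are arrays, and bars are the mean and SD of 3 arrays. Col1a2 is below its control in both settings, while Col3a1, Col4a1 and Col5a3 separate from their control with CHX only.

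Partner genes were read against the 5.57% of all probe sets that passed in the IFNγ average (3.85% higher, 1.72% lower). In the average, 2 of 16 genes for chain modification and folding were higher and 0 were lower. Plod3, a lysyl hydroxylase gene, was higher by 1.27 ± 0.11. P3h2, a prolyl 3-hydroxylase gene, averaged 3.78 with IFNγ and CHX, against 2.44 with CHX, and 2.46 with IFNγ, against 2.4 in mock cells. It entered the test only through the group with IFNγ and CHX, so its call supports nothing. Of 6 genes for propeptide removal and cross-linking, Loxl1 was higher (0.5) and Lox lower (-0.44), both lysyl oxidase genes. Of 7 genes of degradation and its inhibitors, Timp1 was higher (0.54) and Timp2 lower (-0.4). Of 11 TGFβ genes, Tgfb2 was lower (-1.28 ± 0.12), and it passed with CHX (-1.35) and without it (-1.21). Plod3, Lox, Loxl1 and Timp2 were named after their values had been seen. Of the receptors and matrix partners, 0 of 3 and 0 of 14 passed in that average.

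RefSeq windows of 300 bases, 250 before and 50 after the start, were at hand for 20 of the 25 tested collagen genes (21 windows, as Col6a2 has 2). Their median GC content was 61%, against 52.7% over all 32851 windows. GGGCGG occurred in 14 of the 20 genes, on either strand, and in 35.7% of all windows. CCAAT occurred in 8, against 37.4%, TATAAA in 1, which was Col3a1, against 13.6%, and TGANTCA in 1, which was Col6a1, against 7.81%. CACGTG, TTCNNNGAA and the spaced pair of GAAA known as the core of the IFN-stimulated response element occurred in 0 of the 20 genes, against 7.15%, 8.3% and 3.44% of all windows. Letters absent from a window of this size say nothing on whether a factor acts on the gene.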

How the data were processed

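Newly transcribed RNA of NIH-3T3 fibroblasts was measured on Affymetrix MG430 2.0 arrays, 3 for each of 6 treatments. The authors deposited 1 linear intensity per probe set and array, which they computed with gc-RMA per their methods, and the submitters' processing notes name Affymetrix Expression Console. Arrays have no sequencing depth, and their number and the signal over background limit the precision. Of 45101 probe sets, 64 controls were left out. Symbols came from the platform annotation, which gives 1 symbol for 34945 probe sets, several for 932 and none for 9160. The log2 of the intensity was taken without an added constant. The probe sets that reached an intensity of 8.5 on any array (27773) entered a single limma model (version 3.58.1, R 4.3.3) of the 6 treatments, with 12 residual and 2.05 prior degrees of freedom, and p-values were adjusted over all of them by the Benjamini-Hochberg method in each of 12 comparisons. A gene passed at an adjusted p under 0.01. The interaction is the IFN response with CHX minus that without it. The fit was tested on simulated data. Figures were drawn with matplotlib 3.10.9.

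The members, gene lists and tests were chosen with earlier results of these data known. The text names every collagen gene that passed in any comparison, the chains of collagens I, III, IV, V, VI and XII, up to 4 passing genes per partner list by their averaged change with CHX, and 5 genes that check the treatments, of which 3 are given. Alternatives were other added constants, filters, scalings, probe set choices and thresholds, a replicate block, a fit to the arrays of each comparison and leaving out each array. Motifs were searched on both strands of RefSeq promoter windows (GRCm38.p6). Slides and scan dates are not given in the sources used here.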

Additional observations from a re-analysis of the deposited data

How the results depend on the processing

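No collagen gene result changed direction in any alternative. Of 858 values of 30 gene calls, 695 kept their call and 163 lost it, and 10 calls were kept throughout. Counts of genes with CHX and IFNγ against IFNγ fell to 2 with log2(value + 16), with quantile normalization and with centring on the median of all probe sets, and to 0 in a fit to the arrays of the comparison. That fit also gave 1 gene for CHX against mock, 2 for CHX and IFNα against IFNα, 0 for IFNγ against mock, 0 for IFNγ and CHX against CHX and 1 for the IFNγ average. The count for IFNγ against mock was 0 with a minimum of 32 or centring on the tested probe sets and 2 at an adjusted p under 0.05. The IFNγ average gave 1 gene with no filter or with quantile normalization, 4 with a minimum of 32, 0 with centring on the tested probe sets, 5 with centring on all probe sets and 6 at an adjusted p under 0.05. Centring on all probe sets was added after the data had been seen. Centring on the tested probe sets moved the median change of all probe sets with CHX to 0.152, to 0.228 with IFNγ present and to 0.149 in the average, against 0.0353, 0.0283 and 0.0336 as deposited. The cause of these differences was not tested.

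Leaving out single arrays gave 2 to 6, 2 to 6, 2 to 4 and 7 to 9 genes for CHX (mock, IFNα, IFNγ, average), 0 to 2 for IFNγ against mock, 1 to 3 for IFNγ and CHX against CHX, 1 to 3 for the IFNγ average and 0 in each case for the other comparisons. Replicate numbers were not taken as pairs: deviations of arrays with the same number correlated over 0.1 in 15, 9 and 14 of 15 pairs for numbers 1, 2 and 3, and 6, 2 and 6 arrays correlated best with their own number. With a replicate block the IFNγ average gave 4 genes instead of 2 and CHX 8, 8, 5 and 10 instead of 6, 6, 4 and 8, and among the calls only that of Col6a1 in the IFNγ average was lost (adjusted p = 0.0106). Genes near the minimum, such as Col22a1 and Col7a1, are limited by their low signal over background.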
